A study of Mus musculus with 4 samples.

Results

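The transcription factors described here are 10 genes that drive or mark differentiation of the epidermis: Trp63, Grhl1, Grhl2, Grhl3, Klf4, Ovol1, Gata3, Cebpa, Cebpb and Prdm1. They were chosen by name for their known role in skin, with earlier results of these data known. They make up 10 of the 24453 gene symbols counted, and all 10 were among the 14550 genes with enough reads to be tested. The libraries were made from RNA of back-skin epidermis taken at postnatal day 0, after sorting for cells that carried EpCAM, Sca1 and much α6-integrin, a gate for the basal progenitors of the epidermis between hair follicles. The I53A group had 2 libraries from Ring1a-/- Ring1b-/I53A mice, and the CTL group had 2 libraries from mice whose genotype is labelled only as Control. Ring1a and Ring1b (genes Ring1 and Rnf2) are the ubiquitin ligase subunits of the Polycomb complex PRC1, which modifies histone H2A, and the I53A product cannot carry out this reaction. The I53A mice lack Ring1a and carry the I53A allele over a null allele of Ring1b, so the inactive enzyme, the absence of Ring1a and the null allele cannot be told apart. The labels name no Cre driver, and no source used here gives the alleles of the controls.

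The epidermis renews itself from a basal layer whose cells stop dividing, move up through the spinous and granular layers and end as the cornified barrier. Trp63 keeps the basal identity of the tissue, while the Grainyhead-like factors, Klf4, Ovol1, Gata3, the C/EBP factors and Prdm1 act as cells leave the basal layer or build the barrier. The comparison of I53A with CTL addresses the role of PRC1 in developing skin epithelium.

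Total counts were 15966412 and 21543385 in I53A replicates 1 and 2, and 17010432 and 15505018 in CTL replicates 1 and 2. Ring1 fell to 2.54 and 2.91 CPM (read counts scaled to library size) in I53A libraries, against 24.2 and 33.3 CPM in CTL libraries (log2 fold change -3.38 ± 0.31 SE, adjusted p = 0.000172). Rnf2 had 58.9 and 59.1 CPM in I53A and 58.5 and 45.8 CPM in CTL libraries (adjusted p = 0.681), though reads summed over a gene cannot show the I53A base. The genes of the sort did not pass the test: Epcam had 133 and 159 CPM in I53A and 107 and 85.9 CPM in CTL libraries (adjusted p = 0.0635), Ly6a, a gene for Sca1, had 18.6 and 16.4 CPM in I53A and 17.1 and 22.7 CPM in CTL, and Itga6, the gene of α6-integrin, had 1006 and 784 CPM in I53A and 980.0 and 928 CPM in CTL. The basal keratin Krt5 was abundant in all 4 libraries, at 14040 and 11505 CPM in I53A and 17517 and 21216 CPM in CTL libraries. A second basal keratin, Krt14, had 1944 and 2486 CPM in I53A and 3222 and 3408 CPM in CTL libraries. Both were lower in I53A without overlap, and neither passed the edgeR quasi-likelihood test (adjusted p = 0.138 for Krt5 and 0.0736 for Krt14). Of the 14550 tested genes, 2721 had an unadjusted p under 0.05, the background for such counts in the lists below. At an adjusted p of 0.05, 6.71% of all tested genes passed, with 826 higher and 151 lower in I53A. Thus 84.5% of the calls were increases. Offsets for GC content and length lowered that share to 51.6% and shifted the median over all genes by -0.13 on the log2 scale. With these offsets 4.96% of all tested genes were called higher and 4.66% lower, the background for the list counts with offsets given below. DESeq2 called 7% higher and 1.59% lower, limma-voom 4.8% and 0.935%, and edgeR with no low-count filter 4.78% and 0.965%. Calls over all genes also changed in fits without 1 library, so list counts from those fits are not results about a list.

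Of the 10 factors, 3 rose in I53A epidermis and none fell past the threshold (edgeR quasi-likelihood test), while DESeq2 called the same 3 and Ovol1. The genes that rose were Grhl1 (1.97-fold) and Grhl3 (1.78-fold), both Grainyhead-like factors, and Prdm1 (2.33-fold), a repressor of the granular layer. Over all tested genes 5.68% rose and 1.04% fell. Ovol1, a zinc finger repressor, had a fitted level of 0.429 times that of controls and missed the threshold (adjusted p = 0.0545). Trp63, Klf4, Gata3, Grhl2, Cebpa and Cebpb did not pass the test. The median log2 fold change of the 10 was 0.12, against -0.01 over all tested genes. With GC and length offsets the median of the 10 turned to -0.12, against -0.15 over all tested genes. In bulk RNA, a change in the number of cells of a type and a change in RNA per cell cannot be told apart. The 3 calls were lost when either CTL library was left out. Without CTL replicates 1 and 2 in turn, the log2 fold change was 0.97 and 0.98 for Grhl1. For Grhl3 it was 1.08 and 0.62, and for Prdm1 1.38 and 1.08. Such a fit takes its spread from the I53A pair. Counts differed more within that pair than within the CTL pair (chi-square per degree of freedom 44.3 against 13.6). Without an I53A library the spread comes from the CTL pair. Calls lost or gained in these fits cannot separate a changed effect from a changed spread.

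**Figure D1:**
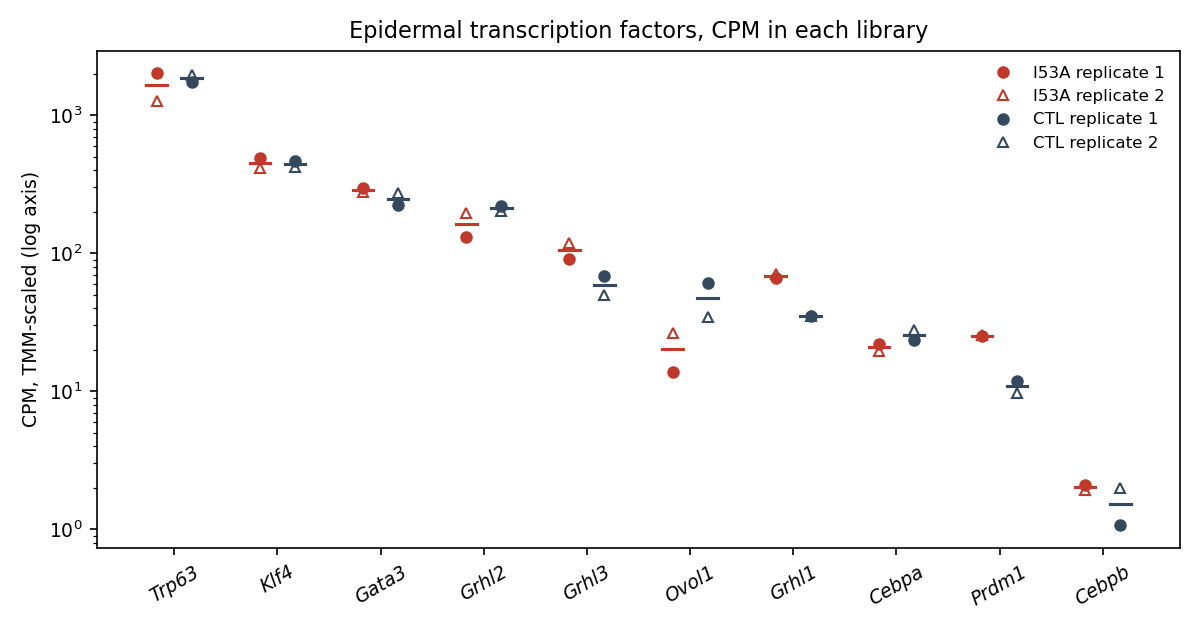
The CPM of each of the 10 factors (log axis) is plotted for the 2 I53A libraries (red, left) and the 2 CTL libraries (dark blue, right), with replicate 1 as a filled circle, replicate 2 as an open triangle and the group mean as a bar. The I53A points lie above the CTL points for Grhl1, Grhl3, Prdm1 and Gata3, and below them for Grhl2, Ovol1 and Cebpa.

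The I53A and CTL libraries did not overlap for 7 of the 10 factors, 4 with I53A higher and 3 with I53A lower. Among all tested genes, 47.9% did not overlap, 24.5% with I53A higher and 23.5% with I53A lower. With 2 libraries a group, an exact permutation test of a single gene cannot go below p = 0.333, so the calls rest on the spread shared across genes. Nothing in the labels says that replicates came from separate animals, so p-values measure only the spread between these libraries, which may be technical.

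The bases before the start sites of the 3 genes that rose are shown because CpG-rich promoters are the usual sites of Polycomb complexes in mammals. Each line gives 250 bases ending at the base before a RefSeq start site on GRCm38.p6, read 5′ to 3′ on the strand of the gene, with every CpG in capitals. The Grhl1 window is chr12:24572037-24572286 on the plus strand, the Grhl3 window chr4:135573633-135573882 on the minus strand and the Prdm1 window chr10:44458749-44458998 on the minus strand.
Grhl1: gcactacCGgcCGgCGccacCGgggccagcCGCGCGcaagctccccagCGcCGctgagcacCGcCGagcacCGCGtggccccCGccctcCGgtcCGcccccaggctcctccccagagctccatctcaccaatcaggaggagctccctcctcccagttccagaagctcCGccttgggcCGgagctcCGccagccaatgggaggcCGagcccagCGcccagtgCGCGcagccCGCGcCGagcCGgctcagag
Grhl3: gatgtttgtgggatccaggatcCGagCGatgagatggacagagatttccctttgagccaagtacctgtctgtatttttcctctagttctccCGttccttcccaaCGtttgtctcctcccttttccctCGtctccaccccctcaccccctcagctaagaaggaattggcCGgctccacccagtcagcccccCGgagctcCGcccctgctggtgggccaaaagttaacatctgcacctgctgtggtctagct
Prdm1: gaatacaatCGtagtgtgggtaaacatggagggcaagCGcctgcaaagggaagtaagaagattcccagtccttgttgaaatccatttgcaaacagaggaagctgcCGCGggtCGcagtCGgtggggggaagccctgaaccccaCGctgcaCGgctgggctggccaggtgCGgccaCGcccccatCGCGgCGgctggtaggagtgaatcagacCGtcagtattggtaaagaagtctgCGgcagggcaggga
These windows held 27 CpGs at Grhl1, 8 at Grhl3 and 15 at Prdm1, against a median of 6 over 32851 windows of the same length in the table. A second RefSeq start of Grhl1, with its window at chr12:24580469-24580718, had 0 CpGs. The windows of Prdm1 and Gata3 lie inside the annotated gene spans, whose outer 5′ ends are at chr10:44528501 and chr2:9890034. The bases at those outer ends were not examined. Of the factors that did not pass the test, Klf4 had 32, Gata3 19, Cebpa 22 and Cebpb 41 CpGs, so that counts above the median were found in genes that did and did not rise. The core of the Grainyhead site, ACCGGT, was found on neither strand in any of the 8 windows of the 7 factors matched (all but Trp63, Grhl2 and Ovol1). It was in only 1.86% of all windows, so any 8 windows would be likely to hold none. The GC box GGGCGG, which itself holds a CpG, was in 5 of the 8 windows and in 32.7% of all, CCAAT was in 3 of 8 and 33.8% of all, and TATAAA was in 1 of 8, that of Cebpa, and 12.4% of all. These matches describe letters only, and binding and histone marks were not measured here.

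Trp63, on chr16:25683763-25892102 of GRCm38 (mm10), encodes p63, the factor that establishes and keeps stratified epithelium. Its level was 2011 and 1277 CPM in I53A replicates 1 and 2 (31610 and 28966 counts), and 1748 and 1948 CPM in CTL replicates 1 and 2 (29358 and 29393 counts). The CTL values lay between the I53A values, so the groups overlapped. Its log2 fold change was -0.17 ± 0.20 (SE, adjusted p = 0.751), and the 95% interval of the fold ran from 0.648 to 1.22. Its sign turned with 1 library: the log2 fold change was -0.53 without I53A replicate 1 and 0.12 without I53A replicate 2. A count per gene does not separate the isoforms with and without the amino-terminal transactivation domain.

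The 3 Grainyhead-like factors bind the same DNA motif and act in epithelial junctions, neural tube closure and skin barrier formation. Grhl1, at chr12:24572283-24617391, is known in mice for desmosomal cadherin expression and hair anchoring. It had 66.6 and 71.1 CPM in I53A replicates 1 and 2 (1046 and 1613 counts), and 34.9 and 35.2 CPM in CTL replicates 1 and 2 (586 and 531 counts). Both pairs of replicates were close, and the groups did not overlap. This came to 0.97 ± 0.16 on the log2 scale (SE, adjusted p = 0.00490), with a 95% interval of 1.53 to 2.52 for the fold. Leaving out CTL replicate 1 or 2 gave fitted log2 values of 0.97 and 0.98, and adjusted p-values of 0.106 and 0.0947.

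Grhl3, at chr4:135541888-135573630, is needed in mice for barrier formation and for expression of the crosslinking enzyme Tgm1. Its level was 90.4 and 119.5 CPM in I53A replicates 1 and 2 (1421 and 2712 counts), and 68.4 and 49.8 CPM in CTL replicates 1 and 2 (1149 and 751 counts). The I53A libraries were the higher ones, without overlap, though replicates of each group differed more than for Grhl1. Grhl3 was 0.83 ± 0.20 higher on the log2 scale (SE, adjusted p = 0.0333), with a 95% interval of 1.31 to 2.42 for the fold. With CTL replicate 1 left out it was 1.08 (adjusted p = 0.0920), and without CTL replicate 2 it was 0.62 (adjusted p = 0.380).

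Grhl2, at chr15:37233036-37363569, supports adherens junction genes such as Cdh1 in epithelia. Its level was 132 and 195 CPM in I53A replicates 1 and 2 and 222 and 201 CPM in CTL replicates 1 and 2. I53A replicate 1 was the low library, while I53A replicate 2 lay just under both controls. The fitted log2 difference was -0.37 ± 0.19 (SE, adjusted p = 0.335), with a 95% interval of 0.581 to 1.03 for the fold. Without I53A replicate 2 the log2 difference of Grhl2 was -0.68, and without I53A replicate 1 it was -0.11.

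Levels per kilobase divide by the merged exons of all annotated transcripts of a gene. That length was 8613 bases for Grhl2, 5539 for Grhl1 and 2789 for Grhl3, against longest transcripts of 4947, 3469 and 2789 bases. Shares and sums of the 3 genes depend on this choice, and they were not computed with the longest transcript. Per kilobase of merged exon, Grhl3 made up 54.3% and 54.7% of the summed Grainyhead-like signal in I53A replicates 1 and 2. It made up 43.4% and 37.5% in CTL replicates 1 and 2. The share of Grhl2 was 25.6% and 28.9% in I53A and 45.5% and 49.1% in CTL libraries. Grhl1 contributed 20.1% and 16.4% in I53A and 11.1% and 13.4% in CTL libraries. Grhl2 thus had the largest share in both CTL libraries and Grhl3 in both I53A libraries. The sum of the 3 genes was 59.7 and 78.3 CPM per kilobase in I53A replicates 1 and 2, and 56.6 and 47.5 in CTL replicates 1 and 2. These shares are a description of 4 libraries, since 2 against 2 cannot go below an exact p of 0.333.

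**Figure D2:**
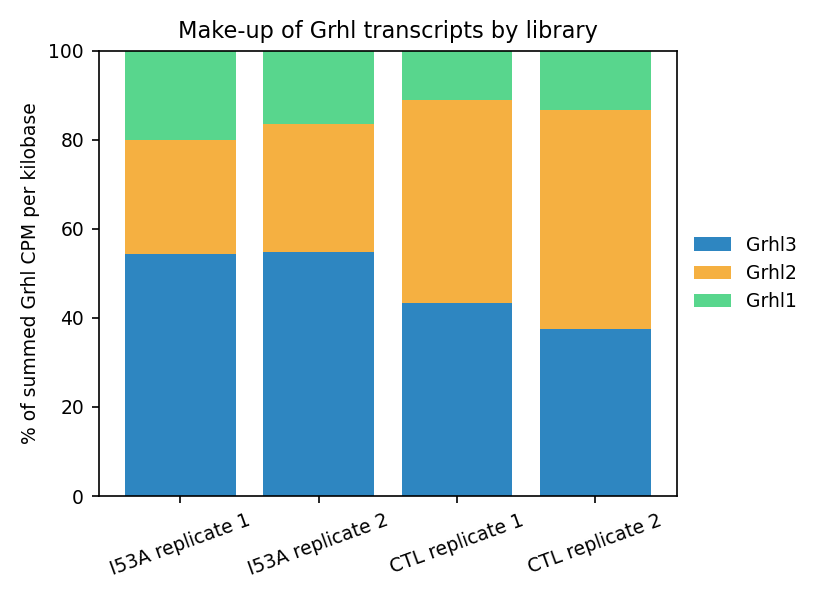
Stacked bars give the percent of the summed CPM per kilobase of merged exon for Grhl1, Grhl2 and Grhl3. Each of the 4 libraries has a bar, I53A on the left and CTL on the right. Grhl3 is 54.3% and 54.7% of the bar in I53A libraries, against 43.4% and 37.5% in CTL libraries, and Grhl2 is smaller in I53A.

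Prdm1, at chr10:44437177-44528501, encodes Blimp1, a repressor that acts in the granular layer at the last steps of epidermal differentiation and also marks cells of the sebaceous gland. It had 25.1 and 25.6 CPM in I53A replicates 1 and 2 (395 and 581 counts), and 12.0 and 9.74 CPM in CTL replicates 1 and 2 (201 and 147 counts). The I53A replicates were nearly equal, and both lay above the controls. Prdm1 rose by 1.22 ± 0.23 on the log2 scale (SE, adjusted p = 0.00994), with a 95% interval of 1.63 to 3.33 for the fold, the only called factor with a fitted fold above 2. This was 1.38 without CTL replicate 1 (adjusted p = 0.0885), and without CTL replicate 2 it was 1.08 (adjusted p = 0.162).

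Ovol1, at chr19:5549136-5560646, is a repressor that in mice restrains proliferation as keratinocytes begin to differentiate. It had 13.9 and 26.5 CPM in I53A replicates 1 and 2 (218 and 601 counts), and 61.0 and 34.3 CPM in CTL replicates 1 and 2 (1025 and 518 counts). Both I53A libraries were below both controls, but the replicates differed 1.91 times within I53A and 1.78 times within CTL. The log2 fold change was -1.22 ± 0.33 (SE, unadjusted p = 0.00378, adjusted p = 0.0545), with a 95% interval of 0.260 to 0.710 for the fold. It was lower in each of 14 alternative analyses, with log2 fold changes of -1.79 to -0.76, and passed the threshold in 7 of them, DESeq2 (adjusted p = 0.00306) and GC and length offsets (adjusted p = 0.0145) included. The adjusted p was 0.523 without CTL replicate 1. Of the Ovol1 exons, 690 bases overlap Gm31166 on the other strand. Gm31166 is not among the counted symbols, and without a stated strand setting its reads could be counted for Ovol1. Annotated antisense genes, likewise not among the counted symbols, share 76 exon bases with Ovol1, 169 with Grhl2, 155 with Gata3 and 51 with Cebpa.

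**Figure D3:**
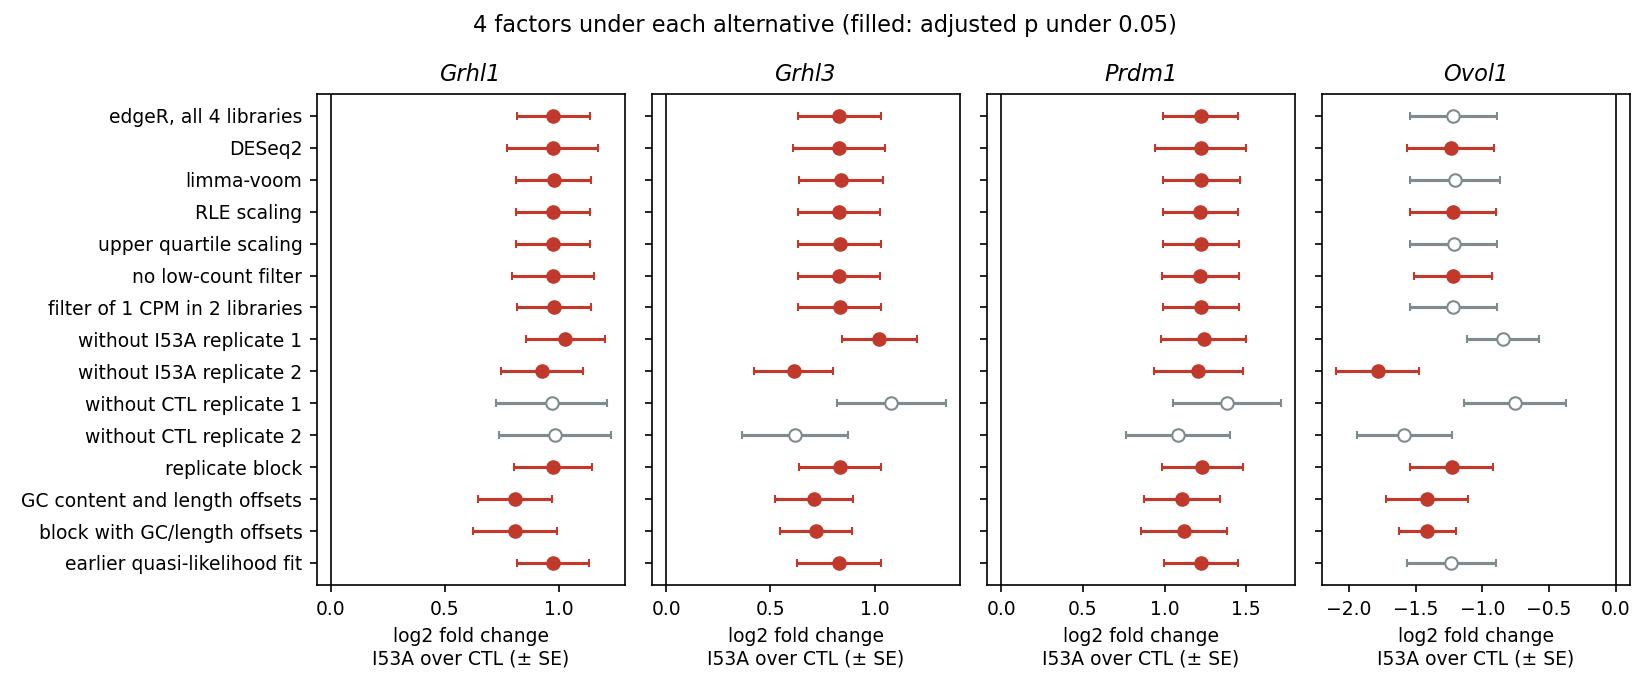
Fitted log2 fold changes of I53A over CTL (± SE) for Grhl1, Grhl3, Prdm1 and Ovol1 are plotted for the analysis of all 4 libraries and each of 14 alternatives, filled where the adjusted p was under 0.05. Grhl1, Grhl3 and Prdm1 are above 0 in each and open only without a CTL library, and Ovol1 is below 0 in each and filled in 7 alternatives.

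Klf4, at chr4:55527143-55532466, is a zinc finger factor required for the skin barrier in mice. It had 492 and 413 CPM in I53A replicates 1 and 2 and 469 and 418 CPM in CTL replicates 1 and 2. Both CTL values lay between the I53A values. The fitted difference was 0.03 ± 0.15 on the log2 scale (SE, adjusted p = 0.952), with a 95% interval of 0.814 to 1.28 for the fold.

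Gata3, at chr2:9857078-9890034, directs the inner root sheath of the hair follicle and takes part in barrier lipid synthesis in mouse epidermis. It had 298 and 277 CPM in I53A replicates 1 and 2 and 223 and 275 CPM in CTL replicates 1 and 2. I53A replicate 2 and CTL replicate 2 were nearly equal, so that the lack of overlap was by a narrow margin. The log2 fold change was 0.21 ± 0.15 (SE, adjusted p = 0.542), with a 95% interval of 0.917 to 1.45 for the fold. The gene 4930412O13Rik lies within the span of Gata3 on the opposite strand with no shared exon bases, and it rose (56.9 and 44.7 CPM in I53A, 29.9 and 31.3 CPM in CTL, adjusted p = 0.0458), a call lost without CTL replicate 1 (adjusted p = 0.359), CTL replicate 2 (adjusted p = 0.288) or I53A replicate 1 (adjusted p = 0.0833). It was also lost with limma-voom (adjusted p = 0.0628) and with GC and length offsets (adjusted p = 0.130). Another counted gene, 9230102O04Rik, shares 77 exon bases with Gata3 on the same strand. It had 3.37 and 3.61 CPM in I53A and 2.14 and 1.86 CPM in CTL libraries (edgeR quasi-likelihood test, adjusted p = 0.405).

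Cebpa and Cebpb are C/EBP factors that in mouse epidermis act together as cells leave the cell cycle and turn on suprabasal keratins. Cebpa, at chr7:35119293-35121928, had 22.1 and 19.7 CPM in I53A replicates 1 and 2 and 23.7 and 27.8 CPM in CTL replicates 1 and 2. Its log2 fold change was -0.30 ± 0.21 (SE, adjusted p = 0.511), with a 95% interval of 0.588 to 1.11 for the fold. Both I53A libraries were lower, but the nearest I53A and CTL libraries were closer to each other than the controls were. Cebpb, at chr2:167688915-167690418, was barely detected, with 2.10 and 1.94 CPM in I53A from 33 and 44 counts and 1.07 and 1.99 CPM in CTL from 18 and 30 counts. Its interval, 0.563 to 3.14 for the fold, was the widest of the 10 (log2 fold change 0.41 ± 0.56, adjusted p = 0.784). Cebpb shares 312 exon bases with Tmem189 on the opposite strand, and its exons are 67.2% GC.

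**Figure D4:**
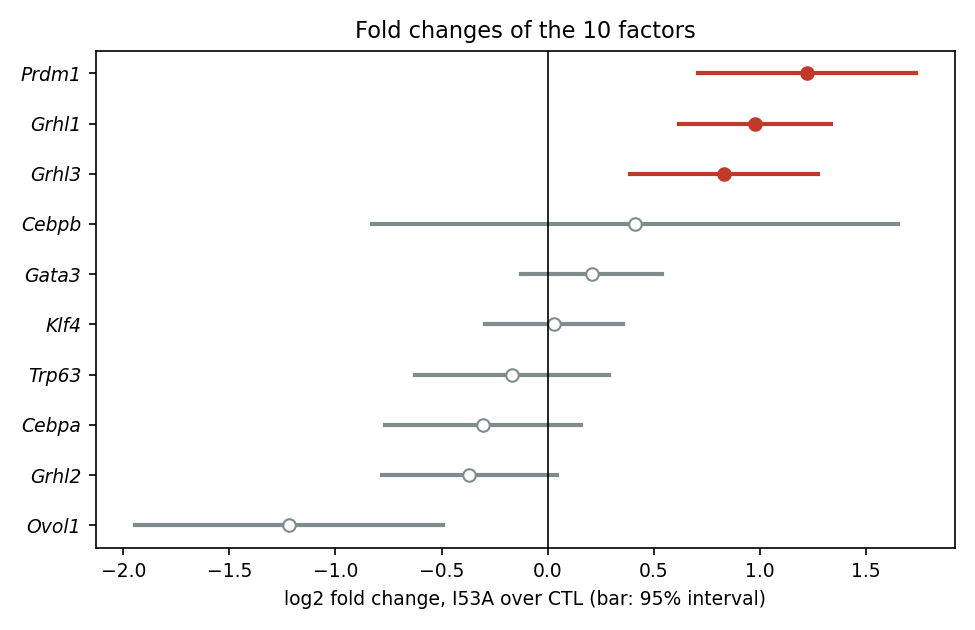
The log2 fold change of I53A over CTL is plotted for each of the 10 factors with its 95% interval, filled red where the adjusted p was under 0.05. The intervals of Prdm1, Grhl1 and Grhl3 lie above 0, that of Ovol1 lies below 0 without passing the adjusted threshold, and that of Cebpb is the widest.

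Compared per kilobase of exon, Trp63 was the most abundant factor, at 196 ± 61.9 CPM per kilobase in I53A and 220 ± 16.9 in CTL (SD, n = 2 each). Klf4 followed at 148 ± 18.5 in I53A and 145 ± 11.7 in CTL, and Gata3 at 72.2 ± 3.77 in I53A and 62.6 ± 9.35 in CTL. In I53A the order went on with Grhl3 (37.6 ± 7.38), Grhl2 (19.0 ± 5.22), Grhl1 (12.4 ± 0.579), Cebpa (7.92 ± 0.638), Ovol1 (5.79 ± 2.56), Prdm1 (4.55 ± 0.0602) and Cebpb (1.34 ± 0.0754). In CTL it went on with Grhl2 (24.5 ± 1.69), Grhl3 (21.2 ± 4.72), Ovol1 (13.7 ± 5.41), Cebpa (9.77 ± 1.11), Grhl1 (6.33 ± 0.0389), Prdm1 (1.95 ± 0.282) and Cebpb (1.02 ± 0.431). Within I53A, the neighbouring pairs Trp63 and Klf4, Cebpa and Ovol1, and Ovol1 and Prdm1 overlapped between libraries. Within CTL, Grhl2 and Grhl3, and Ovol1 and Cebpa, overlapped. Grhl1 ranked above Cebpa and Ovol1 in I53A and below both in CTL. These orders and overlaps were computed with the merged exon length only, and close ranks could change with another length. Trp63 had 8391 merged bases against a longest transcript of 5366, and Cebpa 2636 against 2626.

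Relatives of the factors in the same families were also counted. Of 26 listed, 21 were tested, 3 rose and none fell in edgeR, and DESeq2 called 3 higher and 1 lower. The median log2 fold change was 0.09, and it was -0.13 without I53A replicate 1 and -0.03 with GC and length offsets. Prdm8, a relative of Prdm1, had 8.08 and 5.02 CPM in I53A libraries and 1.13 and 0.398 CPM in CTL libraries (log2 fold change 3.02 ± 0.58, adjusted p = 0.0114). Tfcp2l1, a more distant Grainyhead relative, had 86.1 and 60.1 CPM in I53A and 40.5 and 35.1 CPM in CTL libraries (0.95 ± 0.20, adjusted p = 0.0190). For both genes the CTL libraries lay below the I53A libraries. Ovol2 was low, at 1.34 and 1.19 CPM in I53A and 2.80 and 0.663 CPM in CTL, and Trp73, the closest relative of Trp63, had 92.1 and 50.4 CPM in I53A and 66.8 and 56.8 CPM in CTL. Neither passed the test. No relative was called without CTL replicate 1, and without CTL replicate 2 there was 1. Leaving out I53A replicate 1 gave 4 higher and 2 lower, and with GC and length offsets 3 higher and 2 lower.

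Of 28 tested further epidermal transcription factors, 2 rose and 1 fell, with a median of 0.03. Pou3f1, a POU factor of the suprabasal layers, fell to 64.7 and 89.8 CPM in I53A, against 132.9 and 190.8 CPM in CTL libraries (log2 fold change -1.06 ± 0.21, adjusted p = 0.0128). Dlx5, a homeobox gene, had 9.10 and 14.9 CPM in I53A and 4.17 and 2.78 CPM in CTL (1.80 ± 0.39, adjusted p = 0.0192). Barx2, a homeobox gene expressed in hair follicles, had 89.8 and 75.0 CPM in I53A and 45.8 and 55.9 CPM in CTL (0.70 ± 0.17, adjusted p = 0.0403). For each of these 3 genes the groups did not overlap. Without CTL replicate 1 the list kept Pou3f1 (adjusted p = 0.0374), and without CTL replicate 2 no gene of the list was called. With GC and length offsets 1 rose and 4 fell, and without I53A replicates 1 and 2 in turn there were 3 higher and 5 lower, and 4 higher and 3 lower.

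Known targets of the factors were then counted. Of 17 tested Trp63 targets none was called by edgeR, and 6 had an unadjusted p under 0.05, against 2721 of all 14550 tested genes. Their median was -0.09, and Krt5 was the most abundant. The summed level of these targets was 33192 and 29055 CPM in I53A and 37357 and 40127 CPM in CTL libraries. Krt5 alone gave 14040 and 11505 CPM of it in I53A and 17517 and 21216 CPM in CTL. The sum thus largely follows this 1 gene and does not describe the targets as a set. DESeq2, limma-voom and edgeR with no low-count filter each called 2 of them lower. With GC and length offsets 6 of them were called lower, against 4.66% of all tested genes. Those offsets moved the median of these targets to -0.33 and that of all tested genes to -0.15. Without I53A replicates 1 and 2 in turn the median of the targets was -0.14 and -0.07. Of 11 tested Grainyhead targets 1 rose and 1 fell, with a median of -0.03. Tgm1, a transglutaminase that crosslinks the cornified envelope, rose to 19.5 and 22.7 CPM in I53A, against 8.57 and 6.23 CPM in CTL (1.51 ± 0.27, adjusted p = 0.00744). Tgm5, a second epidermal transglutaminase, fell to 4.77 and 8.33 CPM in I53A, against 36.0 and 30.5 CPM in CTL (-2.30 ± 0.28, adjusted p = 0.000920). The Tgm5 call held without each library in turn, and the Tgm1 call was lost without CTL replicate 1 (adjusted p = 0.0590) or 2 (adjusted p = 0.125). Cdh1, the E-cadherin gene, had 1624 and 1361 CPM in I53A and 1317 and 1232 CPM in CTL, and did not pass the test. With either I53A library left out, 2 Grainyhead targets were called lower.

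Genes that the factors repress include the Ovol targets Zeb1 and Myc. Of 8 tested none passed the edgeR test or DESeq2, 2 had an unadjusted p under 0.05, and the median was 0.24. Without I53A replicate 1 there was 1 called higher. Nfat5, the most abundant of them, had 701 and 534 CPM in I53A and 507 and 548 CPM in CTL libraries. Zeb1 had 8.97 and 8.99 CPM in I53A and 4.40 and 6.96 CPM in CTL libraries (0.67 ± 0.34, adjusted p = 0.336).

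Among the layer lists, the granular and cornified one had the median farthest from 0. Of 22 tested granular and cornified genes 6 rose and 2 fell, with a median log2 fold change of 0.68. Tgm1, Tgm5 and Ivl were counted among the Grainyhead targets too. Scel, an envelope precursor, rose to 139.6 and 111 CPM in I53A, against 64.5 and 41.8 CPM in CTL (1.23 ± 0.21, adjusted p = 0.00639), and with Tgm1, Aloxe3, Sprr1b, Rptn and Klk5 made up the genes that rose. Tgm3, a hair and envelope transglutaminase, fell to 15.0 and 15.9 CPM in I53A, against 36.0 and 92.8 CPM in CTL (-2.05 ± 0.37, adjusted p = 0.00796), and Tgm5 also fell. Without CTL replicate 2 the log2 fold change of Tgm3 was -1.22 and it was not called (adjusted p = 0.0738). Without CTL replicate 1 the count was 1 higher and 2 lower, without CTL replicate 2 it was 2 higher and 1 lower, and without I53A replicate 1 it was 9 higher and 2 lower. Without I53A replicate 2 it was 7 higher and 3 lower, and with GC and length offsets 6 higher and 4 lower.

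Of 13 tested spinous genes none was called by edgeR, 4 had an unadjusted p under 0.05 and the median was -0.02. DESeq2 and edgeR with no low-count filter each called 1 lower. Dsp, the desmoplakin gene and the most abundant, had 3478 and 4241 CPM in I53A and 4999 and 4471 CPM in CTL libraries. Spinous calls turned with the I53A library left out, at 2 higher without replicate 1 and 4 lower without replicate 2, and GC and length offsets gave 2 lower. Krt1, named after its values were seen, differed 1.86 times between the I53A replicates (1472 and 2736 CPM in I53A, 2053 and 2542 CPM in CTL). Within the same pair, replicate 2 had 1.48 times the Grhl2 and 1.91 times the Ovol1 of replicate 1, and replicate 1 had 1.58 times the Trp63 of replicate 2. The basal list held 16 tested genes. Krt5, Krt14, Itga3, Itga6, Itgb4, Col17a1 and Dst are also among the Trp63 targets above, so counts of these lists are not separate results. In the basal list 1 gene rose and 2 fell: Igfbp3 rose (1.29 ± 0.17, adjusted p = 0.00153), and Krt15 (-0.78 ± 0.18, adjusted p = 0.0254) and Sox6 (-0.64 ± 0.16, adjusted p = 0.0465) fell. No basal gene was called once CTL replicate 1 was left out and only 1, higher, without CTL replicate 2, and with GC and length offsets 5 fell. Leaving out I53A replicate 1 gave 2 higher and 2 lower.

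**Figure D5:**
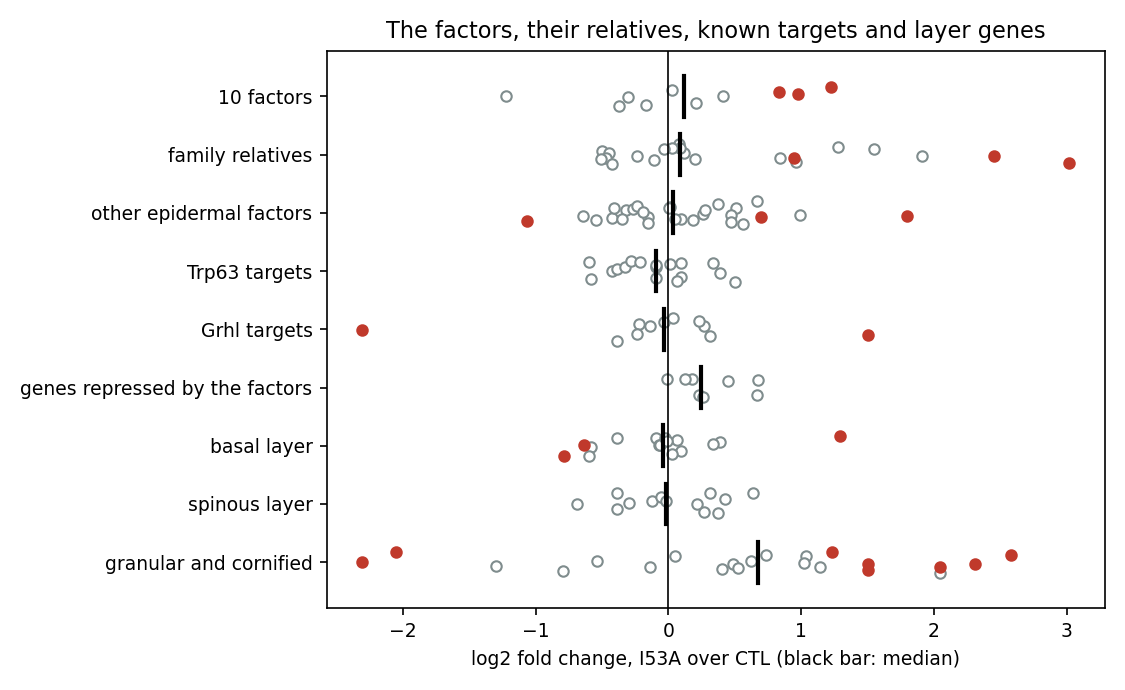
Each point is the log2 fold change of I53A over CTL of 1 tested gene, in rows for the 10 factors, their relatives, other epidermal factors, targets and layer genes, filled where the adjusted p was under 0.05, with a black bar at the row median. The median is 0.68 in the granular and cornified row and between -0.09 and 0.24 in the others.

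Markers of other cells that the sort could hold moved beside these results. Of 15 tested hair follicle genes 4 rose and 3 fell, and their summed level was 956 and 1052 CPM in I53A and 638 and 642 CPM in CTL libraries. Lhx2 rose to 85.0 and 78.5 CPM in I53A, against 20.4 and 25.6 CPM in CTL libraries, and Nfatc1 to 143 and 129 CPM in I53A, against 66.4 and 56.5 CPM in CTL. Tchh (-1.87 ± 0.18, adjusted p = 0.000278) and Krt27 (-3.27 ± 0.60, adjusted p = 0.00846), genes of the inner root sheath, fell, and the Krt27 call was lost without CTL replicate 1 (adjusted p = 0.0715) or 2 (adjusted p = 0.113). Of 10 fibroblast genes 4 rose, Col5a1, Fbn1, Thy1 and Dcn, with a sum of 2486 and 2279 CPM in I53A and 1545 and 1631 CPM in CTL. Of 4 tested Merkel cell genes Piezo2 rose, with a sum of the list of 27.0 and 24.2 CPM in I53A and 17.7 and 9.48 CPM in CTL, and 4 of 7 listed averaged under 1 CPM. Melanocyte genes (sums of 30.3 and 27.1 CPM in I53A, 20.6 and 27.8 CPM in CTL), endothelial genes (23.5 and 30.9 CPM in I53A, 12.6 and 32.7 CPM in CTL) and immune genes (167 and 369 CPM in I53A, 165 and 327 CPM in CTL) held no gene called by edgeR, with 1, 0 and 2 of them at an unadjusted p under 0.05. DESeq2 and edgeR with no low-count filter each called 1 immune gene higher, and edgeR without I53A replicate 1 called 2. Cd3g was at 0 in every library. Of 3 tested muscle genes Myh4 was called, with 0 CPM in both I53A libraries and 3.39 and 1.39 CPM in CTL, a call lost without CTL replicate 1 (adjusted p = 0.183). Without CTL replicates 1 and 2 in turn, 2 and 3 fibroblast genes and 2 and 2 hair follicle genes were called higher, 2 and 1 hair follicle genes lower, and no Merkel cell gene. Leaving out I53A replicate 1 gave 7 hair follicle genes higher and 4 lower, and without I53A replicate 2 there were 7 fibroblast genes higher. The part of these cells in the levels of Grhl1, Grhl3 and Prdm1 was not tested.

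The genes with profiles most like the 3 factors that rose, by the distance of centred log2 CPM over 4 libraries, were Gbp7, Fmnl3 and Srrm4os for Grhl1 (distances 0.0563, 0.0616 and 0.0681), Lair1, Loxl1 and Plppr1 for Grhl3 (0.0471, 0.0696 and 0.0733), and Epb41l2, Abca3 and Chst11 for Prdm1 (0.0750, 0.0954 and 0.0956). Fmnl3 had 57.3 and 60.0 CPM in I53A and 29.4 and 28.5 CPM in CTL, and Chst11 had 100.5 and 110 CPM in I53A and 48.8 and 42.6 CPM in CTL. Of the 9, only Fmnl3, Epb41l2, Abca3 and Chst11 were themselves called.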

How the data were processed

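Per the labels' protocols, RNA of sorted cells was amplified (Ovation RNA-seq System V2) and sequenced as single reads. DESeq2 1.6.3, HTSeq 0.6.1, Cufflinks 2.2.1 and TopHat2 2.0.13 are named with mm10 in the submitters' processing notes, without roles. The annotation, counter and strand setting were not given in the sources used here. Files deposited by the authors hold whole-number raw counts of reads per gene symbol, 1 library each.

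Genes were kept by filterByExpr (minimum count 10, minimum total 15) and I53A was tested over CTL by edgeR's quasi-likelihood test (edgeR 4.0.16, R 4.3.3), two-sided, with TMM scaling and Benjamini-Hochberg adjustment over all 14550 genes. A gene was called at an adjusted p under 0.05. CPM divide counts by the TMM-scaled library size. The test was checked on simulated counts. Gene models came from GENCODE M21 (GRCm38), with length and GC content for 98.0% of tested genes, and promoter sequences from RefSeq. Distances between profiles used log2(CPM + 0.5).

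Alternatives were upper-quartile scaling, RLE scaling, limma-voom (3.58.1), DESeq2 (1.42.0), no filter on low counts, a filter of 1 CPM in 2 libraries, each library left out (the lone library is then assumed to vary like the other group), the replicate number as a block, loess offsets (span 0.5) for GC content and length, both together, and, chosen after seeing the data, the earlier quasi-likelihood fit.

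The 10 factors and all lists were chosen with earlier results of these data known. Named were the 10 factors, Ring1, Rnf2, up to 2 higher and 2 lower called genes of smallest p per list, or the most abundant where none was called, and the 3 nearest profiles. Other genes were named after their values were seen. The values of 1 called relative are not reported here.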

Additional observations from a re-analysis of the deposited data

How the results depend on the processing

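Grhl1, Grhl3 and Prdm1 were higher in all 14 alternatives and passed the threshold in 12, missing it without either CTL library. Ovol1 was lower in all 14 and passed in 7. Directions turned only for factors that did not pass: leaving out 1 library gave -0.53 to 0.12 for Trp63 (0.12 without I53A replicate 2) and -0.10 to 0.15 for Klf4 (-0.10 without I53A replicate 1, -0.050 without CTL replicate 2), Klf4 was -0.15 with GC and length offsets and -0.15 with block and offsets, and Cebpb was -0.093 with offsets and -0.10 with block and offsets. Leaving out 1 library gave 297 to 1520 called genes (258 to 1131 higher, 34 to 389 lower) and 0 to 5 called factors (0 to 3 higher, 0 to 2 lower). Genes called lower numbered 232 with DESeq2, 232 with the replicate block, 665 with offsets and 1287 with block and offsets, which called 2350 genes in all. DESeq2, RLE scaling, no low-count filter, the replicate block and offsets each called 1 factor lower, Ovol1, and block with offsets called 6 factors, 3 of them lower (Ovol1, Grhl2 and Cebpa). The labels do not say whether same-numbered libraries share more than a number. Over genes, deviations of the 2 replicate 1 libraries from their group means correlated at 0.0407. With 2 libraries a group this is a single contrast, and it cannot show whether they shared a litter or day. With the replicate number as a block 1274 genes were called. Offsets left Grhl1 at 0.81, Grhl3 at 0.71 and Prdm1 at 1.11. The cause of these changes was not tested. The low counts of Cebpb limit what can be said of it.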

Other observations

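Of the 20 tested protein-coding genes that flank the 10 factors, 2 were called. Celf2, 2348 kb from Gata3, had 138 ± 22.5 CPM in I53A and 46.5 ± 6.76 CPM in CTL (SD, n = 2 each), a log2 difference of 1.57 ± 0.18 (SE, edgeR quasi-likelihood test, adjusted p = 0.000694). Slc7a10, an amino acid transporter gene 64.5 kb from Cebpa, had 5.87 ± 2.73 CPM in I53A and 0.0298 ± 0.0421 CPM in CTL (SD, n = 2 each, adjusted p = 0.00299). The flanking genes of the factors that rose, Taf1b and Klf11 at Grhl1, Nipal3 and Ifnlr1 at Grhl3, and Atg5 and Prep at Prdm1, did not pass the test, with log2 fold changes of -0.16 to 0.14.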
